A study of Mus musculus with 5 samples.

Results

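The genes described here encode the JAK kinases, the STAT transcription factors and the proteins that restrain them or carry their signal. The 29 genes were listed by name: 4 kinases, 6 STATs, 8 genes of the SOCS family, 4 of the PIAS family, 4 tyrosine phosphatases and 3 adaptors. A gene counted as measured when the array held a probe set annotated to its symbol alone, and all 29 were measured, out of 18193 genes in the table. They were read by 80 probe sets. The list was drawn by function and not by measured values, although results of these data were known when it was proposed.

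Cytokine receptors of this class have no enzyme of their own. When a ligand joins the receptor chains, the JAK kinases bound to them phosphorylate each other and the receptor tails, STAT proteins dock there, are phosphorylated, pair and move to the nucleus. Signalling is limited by SOCS proteins, whose genes are themselves STAT targets and which block or degrade the receptor complex, by PIAS proteins, which hold STATs off DNA and attach SUMO, and by tyrosine phosphatases. Dendritic cell development depends on Flt3 ligand and STAT3, and monocyte production on cytokines that signal through both JAK and receptor tyrosine kinases.

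The samples were sorted cells of female C57BL/6 mice aged 6 to 8 weeks, on 1 Affymetrix array each. Brain dendritic cells (brain DC, 2 arrays) were lineage-negative, CD45-high and CD11c-positive, from mice that carried a subcutaneous B16-Flt3L tumour, a melanoma line releasing Flt3 ligand, for 12 days. Bone marrow monocytes (3 arrays) were CD115+ cells with high CD11b and low side scatter, and no treatment is given for their donors. Tissue, cell type and tumour therefore change together and cannot be told apart. Whether the arrays of a group stand for different animals is not said in the labels, and the spread behind every p-value here may be technical. In such bulk samples, fewer cells of a type and less RNA per cell cannot be told apart.

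Each value is a log2 RMA value with the probe set's own baseline taken off. It shows how arrays differ, and it gives neither the level of a gene nor whether it was detected. A gene's value is the mean of its probe sets. Differences are brain DC minus monocyte, with the standard error (SE) of the limma fit over all genes (n = 2 and 3). A gene was called higher or lower when its Benjamini-Hochberg adjusted p over all genes was below 0.05. With so few arrays precision is low, and for a single value the exact permutation test (two-sided, the one-sided p doubled) has 0.2 as its smallest p.

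Marker genes followed the sort labels: 10 of 10 dendritic cell markers were higher in brain DC and 7 of 8 measured monocyte markers were lower. Other lists were set against all genes, of which 16.9% were called higher and 16.9% lower. Of 9 measured microglia markers, 8 were higher in brain DC, with array means of the list between 1.86 and 2.06 against -0.85 to -0.57 in monocytes. Of 12 immediate early genes, which respond to stimulation and handling, 11 were higher, with list means of 0.97 to 1.12 against -2.27 to -1.78. Among 11 brain and choroid plexus markers 3 were higher (27.3%), with list means of 0.82 to 0.95 against -0.22 to -0.21. Among 10 neutrophil and granule markers 6 were lower, with list means of 0.59 to 0.71 against 1.94 to 3.29. Of 7 natural killer cell markers 3 were higher, with list means of 0.88 to 1.01 against -0.79 to -0.43. Of 6 B cell markers 1 was higher (16.7%, near the share of all genes), of 6 T cell markers 2 (33.3%) and of 4 erythroid markers 1 (25%). None of these 4 lists had a lower gene with all arrays, but without brain DC replicate 2, 1 B cell marker was lower. The T cell count fell to 1 when any 1 array was left out. The erythroid call was lost without brain DC replicate 1 or any 1 monocyte array. A single gene weighs heavily in the natural killer means, with a largest difference of 6.29 and a median of 0.27. The same holds for the brain and choroid plexus means (largest 7.22, median 0.29). Control probe sets differed too. The 5 prime probe set of Actb stood at -0.15 and 0.24 in the brain DC arrays and at -3.76, -3.80 and -1.37 in the monocyte arrays, while its 3 prime probe set lay between -0.31 and 0.23 in all 5. For Gapdh the 3 prime minus 5 prime value was -0.34 and -0.22 in brain DC and 2.28 to 2.86 in monocytes, whereas for Tfrc it lay between -0.87 and -0.50 in all 5 arrays. The 27 poly-A spike-in probe sets had medians of 2.31 and 2.58 in brain DC against -0.12 to 0.02. The part of these features in the differences below was not tested.

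Of the 29 genes, 4 were higher in brain DC, 12 were lower and 13 were not called. Over all genes 16.9% were higher and 16.9% were lower, 33.8% in either direction. The median difference of the members was -0.33, against 0.09 over all genes tested. The 4 higher genes were Socs3, Stat4, Jak2 and Socs5. The 12 lower genes were Socs6, Jak1, Stat5b, Pias2, Pias1, Ptpn1, Stam2, Pias3, Stam, Ptpn6, Sh2b3 and Socs4. The groups did not overlap in 23 of the 29, against 60.2% of all genes, and 6 of the 16 called members differed by at least 2-fold, as did 2464 of the 6151 called genes. Monocyte arrays 1 and 2, which had the lowest Actb 5 prime values, were also left out together, a setting chosen after those values had been seen. In it Socs5, Socs4, Pias3, Ptpn1, Ptpn6, Sh2b3, Stam and Stam2 lost their calls and Ptpn11 was called lower. With a lone monocyte array left, calls over all genes fell too. The differences of Pias3 (-0.39 against -0.62 with all arrays) and Ptpn1 (-0.68 against -0.77) were smaller. Those of Socs4 (-0.61 against -0.53), Ptpn6 (-0.72 against -0.58) and Sh2b3 (-0.67 against -0.56) were larger. Socs5 (0.73 against 0.71), Stam (-0.60 against -0.58) and Stam2 (-0.64 in both) hardly moved. Without brain DC replicate 1 the lower members were 8.

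**Figure D1:**
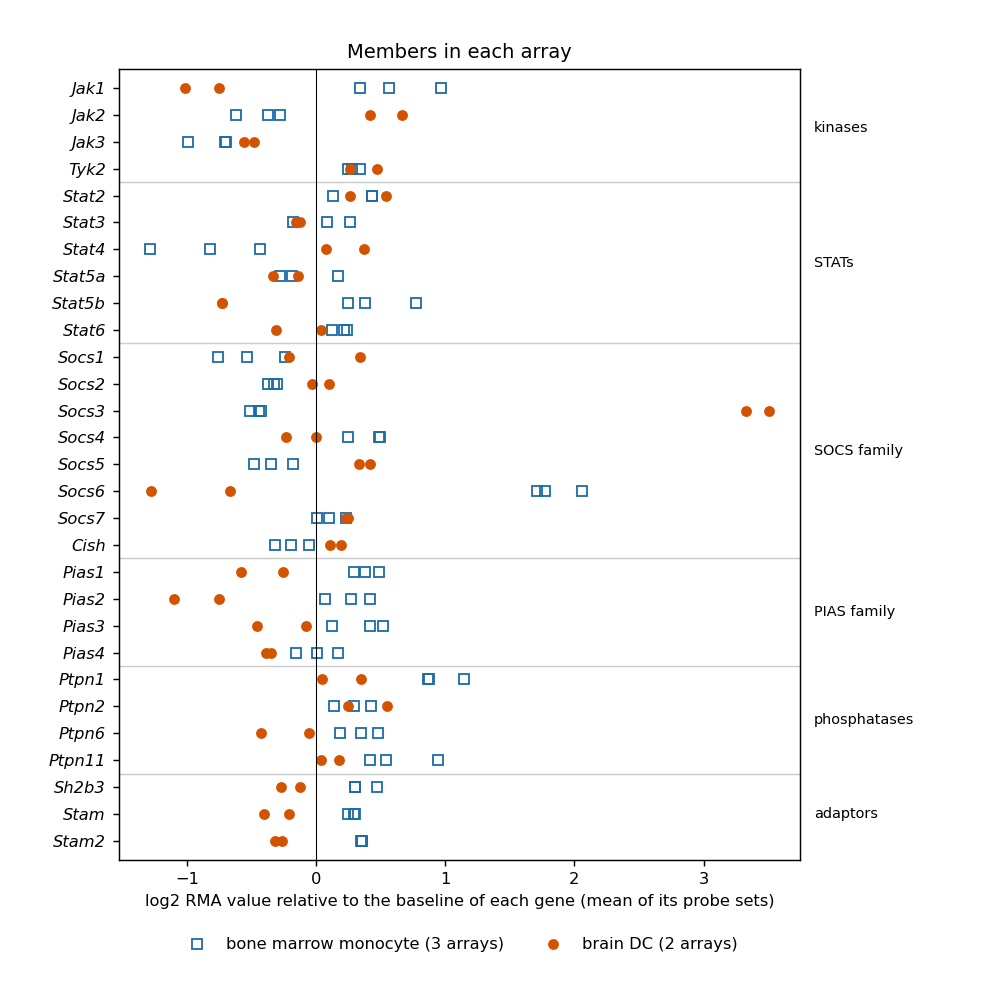
Value of each of the 29 genes in each array, on the log2 scale relative to the gene's own baseline, with brain DC arrays as filled circles and monocyte arrays as open squares. Socs3 stands apart on the right at 3.33 and 3.51 in brain DC, and Socs6 shows the widest gap in the other direction.

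The kinases split. Jak1, which serves interferon, gp130 and common gamma chain receptors, was lower in brain DC, and Jak2, which serves the common beta chain, interferon gamma and growth hormone type receptors, was higher. Jak1 stood at -1.02 and -0.75 in the brain DC arrays and at 0.57, 0.34 and 0.97 in the monocyte arrays. All monocyte values lay above both brain DC values, by a gap of 1.09. The level was 2.84-fold lower in brain DC (-1.51 ± 0.20 SE, limma adjusted p = 0.0012). All 3 of its probe sets were lower, the largest differences being -1.99 and -1.53, with monocyte replicate 3 at 2.07 on the first of them against 0.68 and 0.32 in the other monocytes.

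Jak2 ran the other way, at 0.42 and 0.67 in brain DC against -0.62, -0.28 and -0.37 in monocytes. Again the groups were apart, and the level was 1.96-fold higher in brain DC (0.97 ± 0.15 SE, limma adjusted p = 0.00271), with both probe sets called at 0.78 and 1.16. Set against each other within an array, as were 3 other pairs of members, all picked after their values were seen, Jak2 minus Jak1 was 1.44 and 1.42 in brain DC and -1.19, -0.62 and -1.34 in monocytes. That separation follows from the 2 genes lying apart in opposite directions. Its exact two-sided permutation p of 0.2, the smallest the design allows, therefore adds nothing. Leaving out any 1 array kept both calls.

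Jak3, the kinase of the common gamma chain, was read by 1 probe set, because the other 2 that name it also name the neighbouring gene Insl3 and were left out. It stood at -0.56 and -0.48 in brain DC and at -0.70, -0.70 and -0.99 in monocytes, apart by 0.14 but not called (0.28, 95% interval -0.06 to 0.61, limma adjusted p = 0.176). Tyk2, the kinase of type I interferon and interleukin 12 receptors, had overlapping groups (0.08, 95% interval -0.22 to 0.38). Its probe sets disagreed, one being called higher at 0.54 and the other at -0.38 and not called. The gene's difference turned to -0.38 with the probe set of highest mean and to -0.02 without brain DC replicate 2.

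Among the STATs, Stat4 was higher in brain DC, Stat5b was lower, and Stat2, Stat3, Stat5a and Stat6 were not called. Stat4 transmits interleukin 12 signals, and its single probe set read 0.08 and 0.37 in brain DC and -0.44, -0.82 and -1.29 in monocytes. The monocyte arrays were spread over 0.85 but stayed below both brain DC arrays. The level was 2.10-fold higher (1.07 ± 0.24 SE, limma adjusted p = 0.0127). Leaving out brain DC replicate 2 ended the call (0.93, limma adjusted p = 0.0713). The Stat4 promoter held a match to the core of an interferon-stimulated response element (GAAA, any 2 bases, GAAA), searched on both strands, and is printed to show that site. In the RefSeq promoter table (GRCm38.p6), windows run from 250 bases before to 50 bases after a gene's start. The stretch lies at chr1:52008093-52008202 on the plus strand, positions -147 to -38 from the start, with the match in capitals:
Stat4: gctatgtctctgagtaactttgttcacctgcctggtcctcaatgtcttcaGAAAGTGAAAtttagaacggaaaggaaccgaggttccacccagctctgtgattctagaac
Of all 32851 promoter windows 3.44% held this motif, and of the 26 windows of members 3 did, those of Stat4, Stat2 and Socs1. A match is a description of the letters and not a bound site.

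Stat5b and Stat5a are close relatives from neighbouring genes that carry signals of GM-CSF, interleukin 3 and other cytokines. Stat5b stood at -0.73 in both brain DC arrays and at 0.25, 0.77 and 0.38 in monocytes. It was 2.29-fold lower in brain DC (-1.19 ± 0.17 SE, limma adjusted p = 0.00179), with both probe sets called, at -1.61 and -0.78. Stat5a stood at -0.33 and -0.14 against -0.28, 0.17 and -0.18. These groups overlapped and the difference was small (-0.14, 95% interval -0.53 to 0.25, limma adjusted p = 0.56). Stat5b minus Stat5a within an array was -0.39 and -0.59 in brain DC and 0.53, 0.60 and 0.56 in monocytes, with no overlap (exact two-sided permutation p = 0.2, the smallest the design allows). Stat5b alone left a gap of 0.97 between the groups, wider than the whole range of Stat5a, so this lack of overlap adds nothing. The transcripts of the pair are alike in sequence, and cross-hybridisation between their probe sets was not tested.

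Stat3, used by gp130 cytokines, interleukin 10 and Flt3 ligand, overlapped between groups, at -0.16 and -0.13 in brain DC and 0.09, 0.26 and -0.18 in monocytes. The 95% interval of its difference ran from -0.57 to 0.17. It held 4 probe sets, between -0.65 and 0.08, none called. Stat2, the interferon STAT, differed by 0.07 (95% interval -0.30 to 0.44). Its sign turned without brain DC replicate 2 (-0.07) and without monocyte replicate 2 (-0.03). Stat6, the interleukin 4 STAT, stood at -0.31 and 0.04 against 0.21, 0.24 and 0.13, apart by 0.09. It was not called (-0.33, 95% interval -0.67 to 0.01, limma adjusted p = 0.121), and leaving out brain DC replicate 2 brought it past the threshold (-0.50, limma adjusted p = 0.0492).

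**Figure D2:**
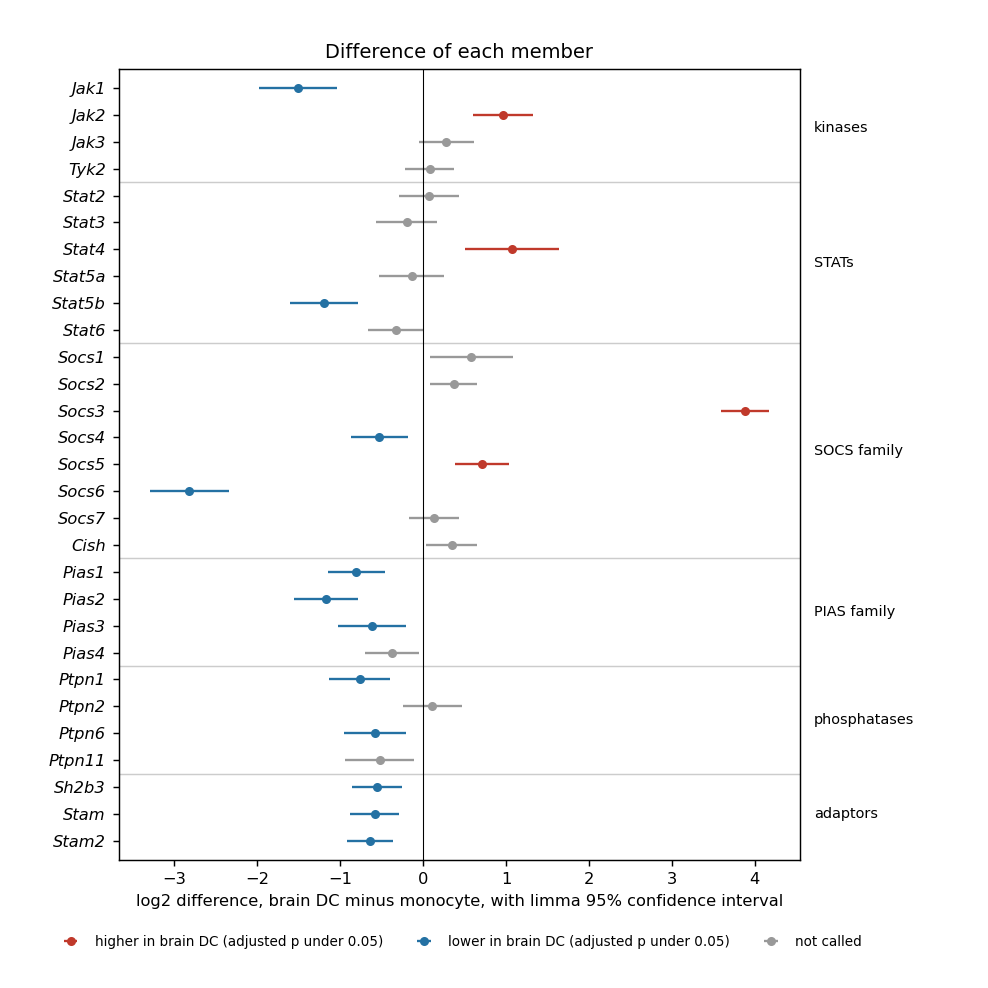
Log2 difference of each gene, brain DC minus monocyte, with its 95% confidence interval from limma, coloured by call. Intervals of the called genes lie clear of 0, from Socs3 at 3.88 to Socs6 at -2.82, and every PIAS gene and adaptor lies to the left. The intervals are not adjusted for the number of genes, and those of Socs1, Socs2, Cish, Pias4 and Ptpn11, which were not called, also lie clear of 0.

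The SOCS family held the largest differences in both directions. Of 8 genes, Socs3 and Socs5 were higher, Socs6 and Socs4 were lower, and Socs1, Socs2, Socs7 and Cish were not called. Socs3, the feedback inhibitor of gp130 and G-CSF receptors, stood at 3.33 and 3.51 in the brain DC arrays and at -0.43, -0.44 and -0.51 in the monocyte arrays. The gap between the groups was 3.76, many times the spread within either. The level was 14.7-fold higher in brain DC (3.88 ± 0.13 SE, limma adjusted p = 2.8e-06), and Socs3 was number 82 by size among all differences in that direction. The size depends on the probe set. The probe set without a cross-hybridisation suffix gave 2.21, with 1.91 and 1.73 against -0.27, -0.54 and -0.37, while those that Affymetrix marks as sharing probes with other sequences (_x_at) gave 4.56 and 4.87. All 3 were called, and no alternative ended the call.

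The Socs3 promoter is printed because it was the only window of a called member with the STAT dimer motif TTCNNNGAA, a palindrome and so the same on both strands. Of all windows 8.30% held this motif, and of the 26 windows of members 2 did, those of Socs3 and Cish. The Socs3 stretch lies at chr11:117969462-117969570 (GRCm38.p6, minus strand), positions -204 to -96 from the start, with the match in capitals:
Socs3: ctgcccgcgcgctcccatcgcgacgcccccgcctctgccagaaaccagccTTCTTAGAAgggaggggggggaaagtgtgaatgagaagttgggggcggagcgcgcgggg
The form preferred by STAT6, with 4 bases between TTC and GAA, also a palindrome, was in 6.95% of all windows and in 1 window of a member, that of Stat2. The table had windows for 22 of the 29 genes, and Socs2, Socs5, Socs6, Socs7, Pias2, Pias4 and Ptpn2 had none.

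Socs6, which binds Kit and Flt3 as well as insulin receptor substrates, stood at -1.28 and -0.67 in brain DC and at 2.06, 1.71 and 1.77 in monocytes. Every monocyte array lay at least 2.38 above the higher brain DC array. It was 7.07-fold lower in brain DC (-2.82 ± 0.20 SE, limma adjusted p = 8.03e-05), and its 3 probe sets were all called, at -3.57, -2.81 and -2.09. It was number 86 by size among all differences in that direction. The Socs3 minus Socs6 value within an array was 4.61 and 4.18 in brain DC and -2.49, -2.15 and -2.29 in monocytes.

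Socs5, an inhibitor of interleukin 4 and epidermal growth factor receptors, was 1.64-fold higher (0.71 ± 0.14 SE, limma adjusted p = 0.00644). It read 0.42 and 0.33 in brain DC and -0.18, -0.48 and -0.35 in monocytes, without overlap. One of its 2 probe sets was called, at 0.98, and the other was at 0.44. Socs4, its closest relative in the family, read 0.00 and -0.23 against 0.49, 0.25 and 0.49. It was 1.44-fold lower (-0.53 ± 0.14 SE, limma adjusted p = 0.0271). That call rested on 1 of 4 probe sets, at -1.93, while the others lay between -0.37 and 0.24 and were not called. Socs4 was not called without brain DC replicate 2 (-0.41, limma adjusted p = 0.123), without monocyte replicate 1 (-0.49, limma adjusted p = 0.0851) and without monocyte replicate 3 (-0.49, limma adjusted p = 0.0821). Nor was it called by the probe set of highest mean (-0.37, limma adjusted p = 0.334) or by the median of its probe sets (-0.37, limma adjusted p = 0.159). Socs5 minus Socs4 within an array was 0.42 and 0.56 in brain DC and -0.67, -0.72 and -0.84 in monocytes. Here too the lack of overlap (exact two-sided permutation p = 0.2) follows from the 2 genes lying apart in opposite directions, and adds nothing.

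Positive differences that did not pass the test were seen for the remaining SOCS genes, among them classical STAT5 and interferon targets. Socs1, the inhibitor of interferon receptor kinases, read 0.34 and -0.21 in brain DC against -0.24, -0.54 and -0.76. The groups were 0.03 apart (0.58, 95% interval 0.08 to 1.08, limma adjusted p = 0.0744), and Socs1 passed the threshold without brain DC replicate 2 (0.86, limma adjusted p = 0.0316). Socs2, a STAT5 target that restrains growth hormone signals, read 0.10 and -0.03 against -0.38, -0.30 and -0.33 (0.37, 95% interval 0.08 to 0.65, limma adjusted p = 0.0516). Of its 6 probe sets 1 was called higher, at 0.99. That probe set carries a cross-hybridisation suffix (_s_at), and without it the difference of Socs2 was 0.24 (limma adjusted p = 0.168). Cish, the STAT5 target and STAT5 inhibitor, read 0.11 and 0.19 against -0.06, -0.32 and -0.20 (0.34, 95% interval 0.03 to 0.65, limma adjusted p = 0.088). Socs7 overlapped between groups, with 0.25 and 0.23 against 0.10, 0.23 and 0.00 (0.13, 95% interval -0.17 to 0.43). A single probe set of its 4 was called, at 0.55.

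Of the 4 PIAS genes 3 were lower in brain DC and 0 higher, against 16.9% of all genes in each direction. The groups of all 4 were apart, as were those of 60.2% of all genes. Pias2, also known as PIASx, stood at -1.10 and -0.75 in brain DC and at 0.07, 0.42 and 0.27 in monocytes, 2.26-fold lower (-1.18 ± 0.16 SE, limma adjusted p = 0.00149). Pias1, which binds STAT and NF-kappaB dimers, stood at -0.58 and -0.26 against 0.29, 0.38 and 0.49, 1.75-fold lower (-0.81 ± 0.15 SE, limma adjusted p = 0.00479). Of its 4 probe sets 3 were called lower, between -1.40 and -0.87, and the other was at 0.25, which is also the one of highest mean and ended the call when taken alone (limma adjusted p = 0.56). Pias3, the STAT3 inhibitor, stood at -0.45 and -0.08 against 0.42, 0.52 and 0.13, 1.54-fold lower (-0.62 ± 0.17 SE, limma adjusted p = 0.03).

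Its 2 probe sets gave -1.55, called, and 0.31, not called. Pias3 lost its call when brain DC replicate 1 (-0.43, limma adjusted p = 0.16), monocyte array 1 (-0.59, limma adjusted p = 0.0858) or monocyte array 2 (-0.54, limma adjusted p = 0.0851) was left out. Pias4, known as PIASy, stood at -0.35 and -0.39 against 0.01, 0.17 and -0.16, apart but not called (-0.37, 95% interval -0.70 to -0.05, limma adjusted p = 0.0764), with 1 of 3 probe sets called lower at -1.04.

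Of the 4 tyrosine phosphatases, Ptpn1 and Ptpn6 were lower in brain DC, and Ptpn11 and Ptpn2 were not called. Ptpn1 encodes PTP1B, which dephosphorylates JAK2 and TYK2. It stood at 0.05 and 0.34 in brain DC and 1.15, 0.86 and 0.88 in monocytes, 1.70-fold lower (-0.77 ± 0.16 SE, limma adjusted p = 0.00775), with both probe sets called. Ptpn6 encodes SHP-1, the phosphatase of inhibitory receptors in blood cells. Its values were -0.42 and -0.06 against 0.35, 0.19 and 0.48, 1.49-fold lower (-0.58 ± 0.16 SE, limma adjusted p = 0.0281). Its call ended without brain DC replicate 1 (-0.40, limma adjusted p = 0.148), without monocyte replicate 1 (-0.57, limma adjusted p = 0.0757) and without monocyte replicate 3 (-0.51, limma adjusted p = 0.0845).

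Ptpn11, which encodes SHP-2, a phosphatase that carries growth factor signals to RAS, read 0.18 and 0.04 against 0.42, 0.54 and 0.94. All monocyte values were above both brain DC values, but it was not called (-0.52, 95% interval -0.94 to -0.11, limma adjusted p = 0.0563). It passed the threshold when each array was centred on its median (-0.56, limma adjusted p = 0.0471), when the median of its probe sets was taken (-0.79, limma adjusted p = 0.0213) and when only the probe set of highest mean was read (-0.63, limma adjusted p = 0.0262). Ptpn2 encodes TC-PTP, which dephosphorylates JAK1 and STATs in the nucleus. The groups overlapped, at 0.55 and 0.25 against 0.14, 0.42 and 0.30 (0.11, 95% interval -0.24 to 0.46), and its 4 probe sets ran from -0.40 to 0.67.

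All 3 adaptors were lower in brain DC, by 1.47- to 1.56-fold, against 16.9% of all genes called lower. Stam2 stood at -0.32 and -0.26 in brain DC and at 0.36, 0.36 and 0.35 in monocytes (-0.64 ± 0.12 SE, limma adjusted p = 0.00478). Stam stood at -0.41 and -0.21 against 0.24, 0.30 and 0.29 (-0.58 ± 0.13 SE, limma adjusted p = 0.0103). Both encode endosomal proteins that bind JAK kinases and sort ubiquitin-tagged receptors.

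Sh2b3 encodes LNK, an inhibitor of JAK2 and of Kit signalling in blood progenitors. It stood at -0.28 and -0.12 against 0.30, 0.30 and 0.47 (-0.56 ± 0.13 SE, limma adjusted p = 0.0143). The probe sets of Stam2 ran from -1.94 to 0.42, with 2 of 6 called, those of Stam from -1.30 to 0.16, with 2 of 4 called, and those of Sh2b3 were -0.98, called, and -0.13. Stam2 lost its call by the probe set of highest mean (-0.25, limma adjusted p = 0.324). Without brain DC replicate 1 the calls of Stam (-0.48, limma adjusted p = 0.0545) and Sh2b3 (-0.48, limma adjusted p = 0.0702) were lost, and Sh2b3 also lost it without monocyte replicate 3 (-0.50, limma adjusted p = 0.051).

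Probe sets of the same gene often differed. When each of the 80 was tested on its own, 10 were higher, 25 were lower and 45 were not called, so 43.8% were called, against 27.7% of the 45037 probe sets of the table. Of those 45037, 12.2% were higher and 15.5% were lower. Unlike the 80, they include probe sets with several symbols or none. Of the 25 genes with more than 1 probe set, 11 had all of them on the same side of 0 and 6 had all of them called, namely Jak1, Jak2, Stat5b, Socs3, Socs6 and Ptpn1. In 0 genes were probe sets called in opposite directions. The positions of the probe sets along the transcripts were not used here, so whether those that disagree lie farther from the 3 prime end was not tested.

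**Figure D3:**
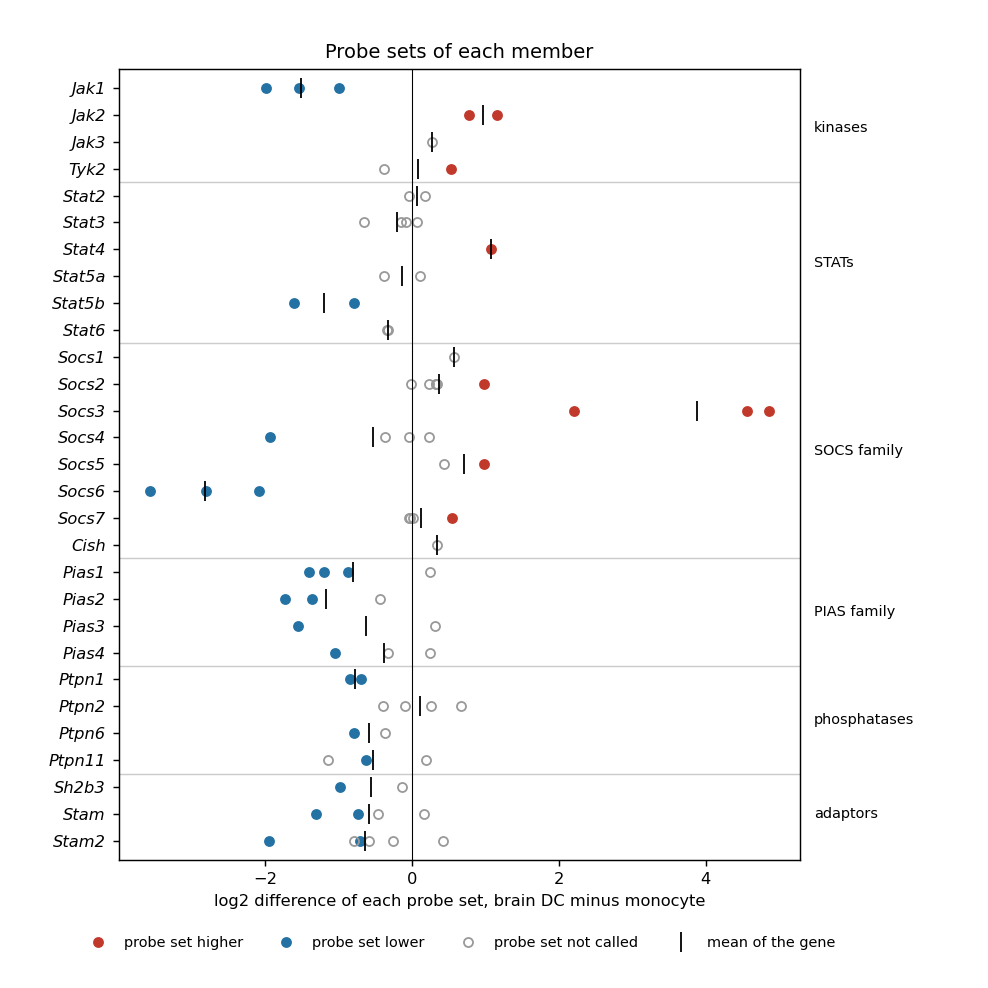
Log2 difference of each of the 80 probe sets, brain DC minus monocyte, by gene, with called probe sets filled and the gene's mean as a bar. Jak1, Jak2, Stat5b, Socs3, Socs6 and Ptpn1 have all probe sets called on 1 side, while the 4 probe sets of Socs4 run from -1.93 to 0.24.

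Calls among the receptors that use these kinases were about as frequent as among all genes. Over 6 lists of receptor chains, 33 genes were measured: 5 higher, 5 lower and 23 without a call, the median being 0.05. These are shares of 15.2% in each direction, against 16.9% of all genes. Among 8 measured genes of the common gamma chain list, which also held the related Il13ra1, 4 were higher and 0 lower. Il2rg, the gene of the chain itself, was not measured. Il7r was 3.19-fold higher (1.67 ± 0.22 SE, limma adjusted p = 0.00109), and Il21r (0.98), Il13ra1 (0.59) and Il4ra (0.51) followed. This count fell to 2 when any of brain DC replicate 2, monocyte replicate 2 and monocyte replicate 3 was left out. Il4ra also lost its call without monocyte replicate 1 (0.54, limma adjusted p = 0.0597), and Il13ra1 without brain DC replicate 1 (0.57, limma adjusted p = 0.142).

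Among 7 gp130 family genes 0 were higher and 2 were lower. Csf3r, the G-CSF receptor, was 4.31-fold lower (-2.11 ± 0.17 SE, limma adjusted p = 0.000119). Il6st, which encodes gp130 itself, stood at -1.02 and -0.64 against -0.08, 0.24 and 0.32, 1.98-fold lower (-0.99 ± 0.18 SE, limma adjusted p = 0.00463). Its 4 probe sets ran from -2.60 to 0.61, and by its probe set of highest mean the gene was called higher (0.61, limma adjusted p = 0.025), the list then having 2 higher genes and 1 lower.

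Of 4 interferon receptor genes, Ifnar2 was called, 2.25-fold lower (-1.17 ± 0.13 SE, limma adjusted p = 0.000506), and the count was 2 without monocyte replicate 2 and 3 by the probe sets of highest mean. Of 5 common beta chain genes, Csf2rb2 was called lower (-0.67), a call lost when brain DC replicate 1 (-0.53), monocyte array 1 (-0.59) or monocyte array 2 (-0.63) was left out. Of 6 interleukin 10 and 12 receptor genes, Il10rb was called lower (-0.76). Of 3 homodimeric receptor genes (2 of them higher by the probe sets of highest mean), Epor was called higher (0.48), a call lost when brain DC replicate 2 (0.40), monocyte array 1 (0.45) or monocyte array 2 (0.46) was left out.

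Ligands and target genes were more often higher than lower. Of 17 measured ligands 6 were higher (35.3%), 0 lower and 11 without a call, against 16.9% of all genes in each direction. Their median was 0.16, against 0.09 over all genes. The groups did not overlap in 47.1% of the ligands, against 60.2% of all genes. Il6, a gp130 ligand, was 13-fold higher, at 3.41 and 3.55 in brain DC against -0.43, -0.20 and -0.04 (3.70 ± 0.15 SE, limma adjusted p = 5.9e-06). Il12b, the shared subunit of interleukins 12 and 23, was 8.37-fold higher but uneven within brain DC, at 3.28 and 2.15 (3.07 ± 0.30 SE, limma adjusted p = 0.000319). The gp130 ligand Lif (0.92) and Il10 (0.91) were higher as well.

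Of 16 genes taken as targets of STAT3 and STAT5, 12 were higher (75%), 1 lower (6.25%) and 3 without a call, the median being 1.02. Over all genes the share was 16.9% in each direction. The largest differences among these targets were those of the cyclin genes Ccnd1, 21.1-fold higher (4.40 ± 0.15 SE, limma adjusted p = 3.1e-06), and Ccnd2, 14.1-fold (3.82 ± 0.23 SE, limma adjusted p = 3.6e-05). They were followed by Junb (2.99), which is also among the immediate early genes, and the fibrinogen-like gene Fgl2 (2.39). The lower gene, named after its value was seen, was the STAT3 target Cebpd (-0.79). These genes have many other regulators, and the list was chosen with earlier results of these data known.

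Of 18 measured interferon target genes 8 were higher (44.4%), 0 lower and 10 without a call, against 16.9% of all genes in each direction. Their median was 0.31, against 0.09 over all genes. The groups did not overlap in 50% of these genes, against 60.2% of all genes. Array means of the list overlapped, at 1.17 to 1.60 in brain DC and 0.47 to 1.22 in monocytes. Bst2 was 8.59-fold higher (3.10 ± 0.16 SE, limma adjusted p = 1.85e-05), Irf7 2.97-fold (1.57 ± 0.27 SE, limma adjusted p = 0.0038) and Ifit3 2.55-fold (1.35 ± 0.26 SE, limma adjusted p = 0.00566). Usp18, which displaces JAK1 from the interferon receptor, was 2.21-fold higher (1.14 ± 0.37 SE, limma adjusted p = 0.0487), a call that ended without brain DC replicate 1 (1.47, limma adjusted p = 0.0601), brain DC replicate 2 (0.82), and without monocyte array 2 (0.89) or 3 (1.03). Without brain DC replicate 2 the 8 higher genes became 4, and without monocyte replicate 2, 1 gene of the list was called lower.

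Among 14 measured partners and other regulators, 4 were higher (28.6%), 5 lower (35.7%) and 5 not called, against 16.9% of all genes in each direction. The STAT coactivators Ep300 (-1.64 ± 0.16 SE, limma adjusted p = 0.000318) and Crebbp (-1.51 ± 0.18 SE, limma adjusted p = 0.000695) were both lower. Pdlim2, a ubiquitin ligase for STATs and NF-kappaB (1.80 ± 0.15 SE, limma adjusted p = 0.000154), and Nmi, which binds STATs (2.84-fold, limma adjusted p = 0.00109), were higher. The parts of the SOCS box ubiquitin ligase went both ways. The elongin genes Elob (1.36) and Eloc (0.72) were higher, and the cullin gene Cul5 was lower (-1.26). The remaining lower genes were those of the receptor phosphatases Ptpre (1.99-fold) and Ptprc (-0.63). The choice to name these 5 came after seeing their values.

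**Figure D4:**
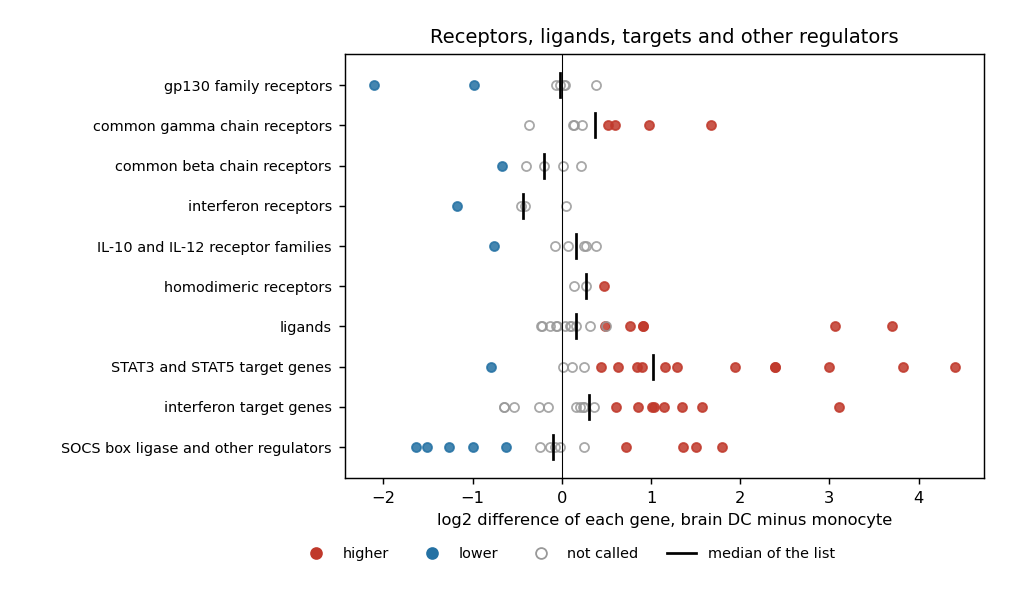
Log2 difference of each measured gene in 10 lists of receptors, ligands, targets and other regulators, brain DC minus monocyte, with called genes filled and the median of each list as a bar. The STAT3 and STAT5 target list has its median at 1.02, and those of the 6 receptor lists run from -0.44 (interferon receptors) to 0.37 (common gamma chain receptors).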

How the data were processed

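Expression was measured on Affymetrix arrays in 2 brain DC and 3 bone marrow monocyte samples. The authors deposited log2 RMA values, as named in the submitters' processing notes. The log base and the baseline taken off each probe set were inferred from the values; which RMA version and which arrays entered that baseline is not given in the sources used here. Of 45101 probe sets, 64 controls stayed out of the tests, 34945 had 1 symbol in the platform annotation, 932 several and 9160 none. A limma model (version 3.58.1, R version 4.3.3) with moderated variances was fitted to all 18193 genes, with Benjamini-Hochberg adjustment at 0.05. It was first run on data simulated from its own fitted variances. That run checks the code and cannot show that the model suits these arrays. A filter on dim genes was planned but cannot be applied to values without levels. All members are named. Of other pathway genes, the 4 called genes with the largest difference per list are named, and any others are marked. Members and lists were chosen with earlier results of these data known. Alternatives were other probe set summaries, normalisations, a robust variance prior, a replicate block, and leaving out arrays.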

Additional observations from a re-analysis of the deposited data

How the results depend on the processing

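Over 14 alternatives, the called members other than Pias1 kept their direction, and 6 of 16 (Jak1, Jak2, Stat5b, Socs3, Socs6 and Pias2) kept their call. Leaving out 1 array in turn gave 4 higher and 8 to 12 lower members, and 2236 to 2447 higher and 2371 to 2806 lower genes in all. Without monocytes 1 and 2 together, chosen after seeing the data, 3 members were higher and 6 lower, and 1386 genes were higher and 1686 lower. That fit assumes that the lone monocyte array varies like the brain DC arrays. In it, Stat2 (-0.030) and Stat3 (0.038) changed sign. By the probe set of highest mean, which in centred values need not be the brightest, Tyk2 (-0.38), Stat2 (-0.033), Stat5a (0.11), Socs7 (-0.036), Pias1 (0.25) and Il6st (0.61) did. Leaving out 1 array, Tyk2 ran from -0.024 to 0.18, Stat2 from -0.067 to 0.21 and Ptpn2 from -0.040 to 0.26. The cause was not tested. The labels do not say that replicate numbers pair the samples. Deviations from the group mean correlated at 0.04 and 0.09 for same-numbered arrays, and from -0.09 to 0.05 for the others. With 2 brain DC arrays these deviations mirror each other, so the correlations cannot decide on pairing. With the replicate block, 4 members were higher and 9 lower, and 2513 genes were higher and 3006 lower. Socs4 (-0.49), Ptpn6 (-0.51) and Sh2b3 (-0.50) were not called. The block was fitted to all 5 arrays and to the 4 numbered 1 and 2. Monocyte replicate 3 has no same-numbered partner, so both fits, counted apart among the 14 alternatives, gave the same values. No filter on dim genes was run, because signal over background is unknown.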
